A study of Homo sapiens with 12 samples.

Results

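A set of 9 genes that govern the sterol regulatory element-binding proteins or move sterol between membranes was followed in ML-2, an established human line from acute myeloid leukaemia, under 2 anticancer agents. The genes were SREBF1, SREBF2, SCAP, INSIG1, INSIG2, STARD4, TMEM97, NPC1 and ABCA1. They were chosen by name, with earlier results of these data known, so the counts of calls among them are descriptive. Every probe set annotated to exactly 1 of these symbols was read. This gave 23 probe sets for the 9 genes, of 19775 genes annotated in the same way. SGI-110 (guadecitabine) is a hypomethylating agent that releases decitabine, and ASTX660 is an antagonist of the inhibitor of apoptosis proteins (IAP). The combination cells received 2 µM SGI-110 for 24 h and then 5 µM ASTX660 for 9 h. The SGI-110 cells received 2 µM SGI-110 and are labelled 33 h, the ASTX660 cells received 5 µM ASTX660 for 9 h after solvent, and the solvent cells received solvent at both steps. Each group had 3 arrays, numbered 2, 9 and 13 in the titles, and the design text gives 3 independent experiments. All groups are 1 cell line, so the p-values measure the spread between experiments on that line. No source used here gives whether SGI-110 was still present when ASTX660 was added.

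SREBF1 and SREBF2 encode transcription factors that are made as precursors in the membrane of the endoplasmic reticulum. When membrane sterol is low, the escort protein SCAP carries the precursor to the Golgi, where proteases release the active factor, and the factor raises genes of sterol and fatty acid synthesis and of sterol uptake. When sterol is high, INSIG1 and INSIG2 hold SCAP in the endoplasmic reticulum, and INSIG1 is itself a target of the pathway, which closes a feedback loop. STARD4 carries sterol through the cytosol, TMEM97 (the sigma-2 receptor) is a membrane protein that binds NPC1, and both are known targets of the pathway. NPC1 exports cholesterol from late endosomes and lysosomes. ABCA1 passes cholesterol out of the cell and is a target of the liver X receptors (LXR), which respond to oxysterols.

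Each array reads RNA abundance as a log2 intensity after robust multi-array averaging (RMA), so a difference of 1 unit is a doubling of intensity and levels of different probe sets are not comparable. The 12 arrays correlated between 0.985 and 0.998, the deposited values ranged from 2.078 to 14.38, and array medians lay between 4.688 and 4.774. CDKN1A, a p53 target that served as a treatment check, averaged 10.45 in combination cells, 10.46 in SGI-110 cells, 8.37 in ASTX660 cells and 8.13 in solvent cells. Of 6 measured markers of the myeloid line, 5 passed the intensity filter, and MEIS1 at 3.10 to 3.53 did not. MPO (13.1 to 13.5 on every array) and LYZ (13.02 to 13.5) were the brightest of them, and SPI1 lay at 6.38 to 7.24. Also passing were 2 of 3 T lymphoid, 1 of 2 B lymphoid, 2 of 2 erythroid and 1 of 4 fibroblast and epithelial markers. The last, COL1A1, lay at 7.33 to 7.92, so passing the filter does not identify the cell type. In principal components, the first (45.8% of the variance) separated arrays with SGI-110 from those without, and the second (16.3%) set the 4 arrays numbered 13, at −8.85 to −16.1, apart from ASTX660 array 2, at 19.5. In such bulk RNA, fewer cells of a type and less RNA per cell cannot be told apart.

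The start regions of some of the genes are shown with the short motifs that were searched for. All are from RefSeq on GRCh38.p14, 5′ to 3′ on the gene's strand, and cover the 250 bases before the annotated start. Capitals mark every match, on either strand, to the sterol element TCACNCCAC, the E-box CACGTG (a palindrome, counted once) or the CCAAT box (those 5 letters). INSIG1 (chr7:155297628-155297877, plus strand), TMEM97 (chr17:28318950-28319199, plus strand) and ABCA1 (chr9:104928156-104928405, minus strand) are shown because they differed with SGI-110, averaged over the presence and absence of ASTX660. The ABCA1 difference did not pass the threshold under some alternatives. STARD4 and NPC1, which also passed it in a comparison, are not shown. SREBF2 (chr22:41832855-41833104, plus strand) is shown because its window was the only one among the 9 genes that held the sterol element.
INSIG1: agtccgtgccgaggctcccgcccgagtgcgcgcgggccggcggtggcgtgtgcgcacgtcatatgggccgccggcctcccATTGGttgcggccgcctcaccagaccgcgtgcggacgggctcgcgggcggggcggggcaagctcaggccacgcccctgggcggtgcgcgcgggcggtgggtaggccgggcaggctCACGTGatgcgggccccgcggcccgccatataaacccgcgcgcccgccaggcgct
TMEM97: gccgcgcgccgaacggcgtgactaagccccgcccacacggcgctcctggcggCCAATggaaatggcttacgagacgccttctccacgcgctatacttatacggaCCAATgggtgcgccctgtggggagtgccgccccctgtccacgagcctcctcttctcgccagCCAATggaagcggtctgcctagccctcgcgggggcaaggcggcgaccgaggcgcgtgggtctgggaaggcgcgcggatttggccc
ABCA1: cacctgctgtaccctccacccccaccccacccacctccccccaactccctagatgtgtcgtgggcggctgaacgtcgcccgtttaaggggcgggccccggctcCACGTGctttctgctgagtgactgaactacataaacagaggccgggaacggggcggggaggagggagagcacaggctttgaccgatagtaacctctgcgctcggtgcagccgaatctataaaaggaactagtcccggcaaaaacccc
SREBF2: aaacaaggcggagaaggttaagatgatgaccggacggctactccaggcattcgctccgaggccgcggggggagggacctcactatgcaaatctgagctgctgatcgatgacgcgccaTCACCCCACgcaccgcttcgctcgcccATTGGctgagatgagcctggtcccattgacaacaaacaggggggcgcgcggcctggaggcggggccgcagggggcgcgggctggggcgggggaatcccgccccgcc
The sterol element of SREBF2 begins 133 bases before the start, with a reverse CCAAT box 106 bases before it. INSIG1 has an E-box at 55 and a reverse CCAAT box at 170 bases before the start, TMEM97 has CCAAT boxes at 198, 146 and 85 bases before it, and ABCA1 has an E-box at 147 bases before it. Of the windows not shown, STARD4 held CCAAT boxes at 161 and 130 bases, SCAP held an E-box at 58 bases, and SREBF1, INSIG2 and NPC1 held none of the 3 motifs. The SCAP window (chr3:47475892-47476191) was taken around a start that lies inside the gene span given below, not at its end. INSIG2 was searched in overlapping windows from different starts. Among 35116 windows of human genes reaching from 250 bases before to 50 after the start, 1.13% held the sterol element, 7.26% the E-box and 34.6% the CCAAT box. A match describes letters in the window and not a bound site. On the same build the other genes lie at chr17:17811334-17836986 (SREBF1), chr3:47413681-47477127 (SCAP), chr2:118088471-118110997 (INSIG2), chr5:111496033-111512535 (STARD4) and chr18:23506184-23586506 (NPC1), and all 9 are protein-coding.

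Of the 23 probe sets, 17 were above the array median in at least 3 arrays and were tested, and every gene kept at least 1. The other 6, from SREBF1, NPC1 and ABCA1, lay at 2.63 to 4.90 on all arrays and were not tested. Each gene is described from its brightest probe set, and its other probe sets by their range; which transcripts each one reads was not examined. Tests were made with limma across 23660 probe sets, with Benjamini-Hochberg adjustment, and calls were made below an adjusted p of 0.05. The comparisons share arrays: SGI-110, ASTX660 and the combination were all set against the same 3 solvent arrays.

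The brightest probe sets of SREBF1, SREBF2, SCAP and INSIG2 were not called in any of the 8 comparisons, although the dimmest of 3 SREBF2 probe sets was called in 1 of them, given further on. SREBF1 read 6.65, 6.70 and 7.04 in combination cells (arrays 2, 9 and 13), 6.55, 6.73 and 7.06 in SGI-110 cells, 6.77, 6.73 and 6.98 in ASTX660 cells, and 6.38, 6.77 and 7.14 in solvent cells. All 4 groups overlapped, and in every group array 13 was the highest. SREBF2 averaged 7.63 ± 0.14 in combination cells, 7.50 ± 0.11 in SGI-110 cells, 7.63 ± 0.056 in ASTX660 cells and 7.55 ± 0.088 in solvent cells (SD, n = 3 each). SCAP averaged 8.50 ± 0.074 in combination cells, 8.45 ± 0.028 in SGI-110 cells, 8.54 ± 0.11 in ASTX660 cells and 8.51 ± 0.048 in solvent cells. INSIG2, the second retention protein, read 8.33, 8.39 and 8.25 in combination cells, 8.32, 8.26 and 8.27 in SGI-110 cells, 8.50, 8.35 and 8.22 in ASTX660 cells, and 8.25, 8.09 and 8.18 in solvent cells.

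These intervals are for those brightest probe sets and for differences averaged over the presence and absence of the other agent. Between the 6 arrays with SGI-110 and the 6 without, the log2 difference was −0.01 for SREBF1 (95% interval −0.27 to 0.26), −0.03 for SREBF2 (−0.16 to 0.10), −0.05 for SCAP (−0.16 to 0.05) and 0.04 for INSIG2 (−0.07 to 0.16). Between the 6 arrays with ASTX660 and the 6 without, it was 0.04 for SREBF1 (−0.22 to 0.30), 0.10 for SREBF2 (−0.03 to 0.23), 0.04 for SCAP (−0.07 to 0.14) and 0.11 for INSIG2 (−0.01 to 0.22). The dimmest SREBF2 probe set had a wider SGI-110 interval, −0.05 to 0.29 around 0.12. A p above the threshold does not show that the levels were equal.

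**Figure D1:**
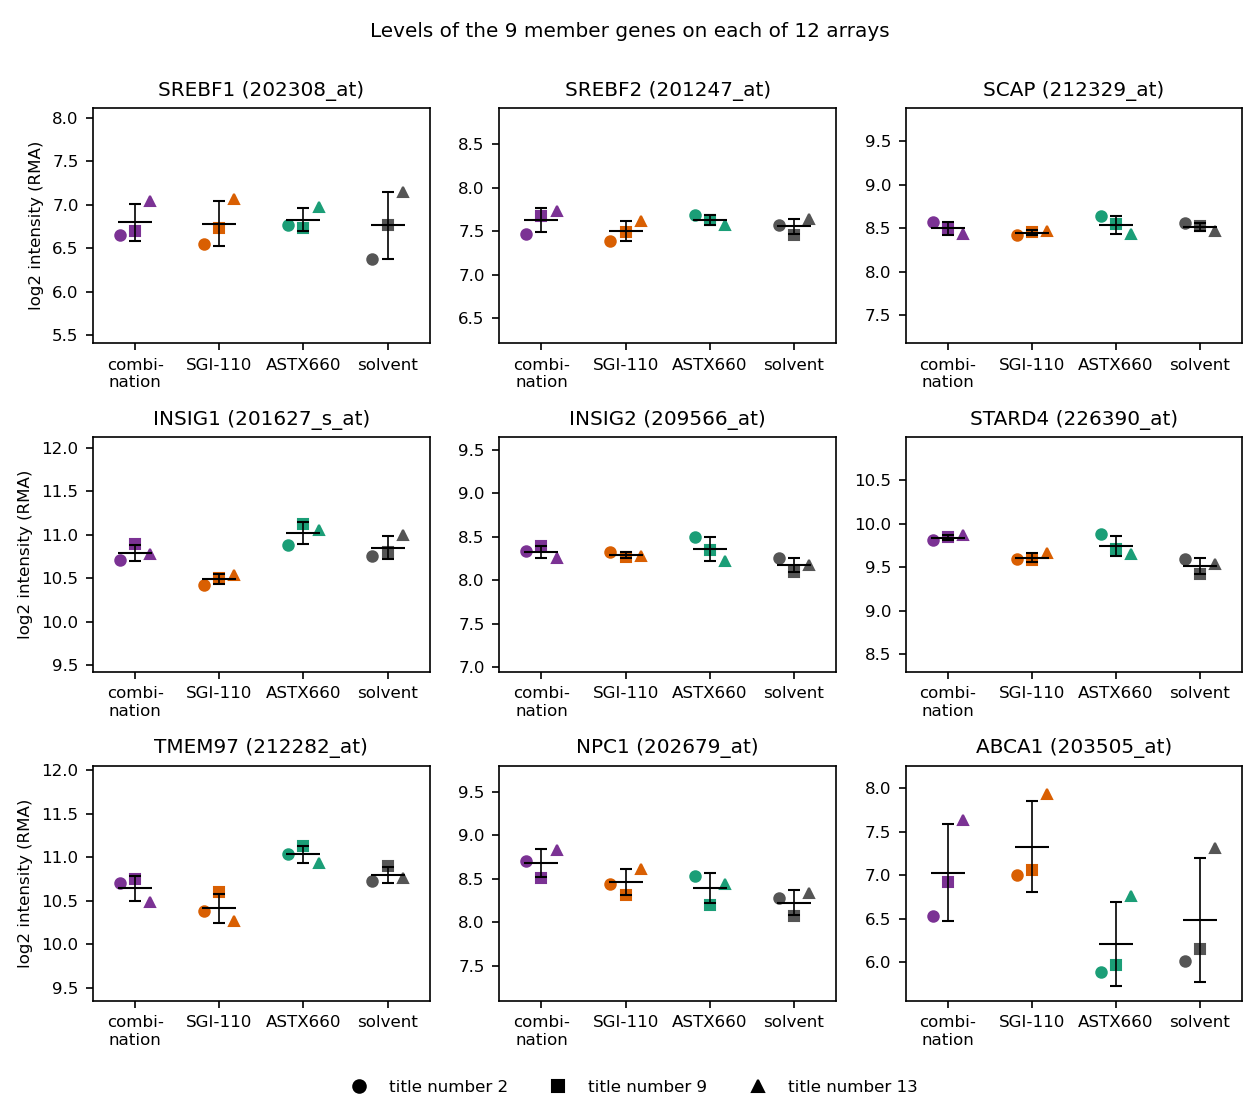
RMA log2 intensity of the brightest probe set of each gene (vertical axis) in combination, SGI-110, ASTX660 and solvent cells, with 1 point per array, the title number as the marker shape, and bars for the mean ± SD (n = 3). Axes start above 0 and span the same number of log2 units in every panel. INSIG1 and TMEM97 are lowest in SGI-110 cells, and ABCA1 spreads most within groups, with array 13 the highest of each group.

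INSIG1, the sterol-regulated retention protein, was lower than solvent with SGI-110 alone and was not called against solvent in the combination. It read 10.42, 10.50 and 10.54 in SGI-110 cells, against 10.75, 10.81 and 10.996 in solvent cells. The groups did not overlap. The difference was −0.36 log2 units (SE 0.0740), or 1.29-fold lower, with a limma adjusted p of 0.00622, and it was −0.33, −0.31 and −0.46 in arrays numbered 2, 9 and 13. The other 2 INSIG1 probe sets fell by 0.37 (adjusted p = 0.00196) and by 0.46 (adjusted p = 0.0416). The call of the dimmest of the 3 was lost without solvent array 13 (adjusted p = 0.168) or 9 (0.0723). It was also lost without SGI-110 array 2 (0.167), 9 (0.0864) or 13 (0.0506), ASTX660 array 9 (0.0548) or combination array 9 (0.0518). Without the intensity trend (0.0709), or with arrays numbered 13 left out of every group (0.0552), it was not called. The other 2 kept their calls under every alternative that tested them.

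TMEM97, which binds NPC1, moved the same way. It read 10.38, 10.60 and 10.27 in SGI-110 cells, against 10.72, 10.89 and 10.76 in solvent cells, again without overlap. The difference was −0.38 log2 units (SE 0.0873; limma adjusted p = 0.0123) and was negative in all 3 numbered pairs, at −0.35, −0.30 and −0.50. All 4 TMEM97 probe sets were called lower, by 0.26 to 0.44 log2 units. The brightest lost its call without solvent array 9 (adjusted p = 0.0608), SGI-110 array 13 (0.0585) or SGI-110 array 2 (0.051). The dimmest lost it without any of the 3 solvent arrays (0.0609 to 0.132) or without SGI-110 array 2 (0.122) or 9 (0.0863). With arrays numbered 13 left out of every group, the dimmest (0.0548) and the second dimmest (0.0501) were not called.

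Those 3 INSIG1 and 4 TMEM97 probe sets were the 7 members of 17 called between SGI-110 and solvent cells, all lower, from 2 of the 9 genes. Over all probe sets tested, 11.2% were called in this comparison and 4.29% were called lower. The median log2 difference over the 17 was −0.07, beside 0.00 over all. Without solvent array 9, or without SGI-110 array 2, the count was 4. With the array number as a block, 20.3% of all probe sets were called, and 3 more member probe sets joined as higher, from NPC1 and ABCA1.

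NPC1 and ABCA1, which export cholesterol from lysosomes and from the cell, were not called between SGI-110 and solvent cells in the fit without a block, and were called higher with the array number as a block. NPC1 read 8.45, 8.32 and 8.62 in SGI-110 cells, against 8.28, 8.07 and 8.33 in solvent cells, and the groups overlapped. Its difference of 0.23 log2 units had a limma adjusted p of 0.211, and of 0.0116 with the block. ABCA1 read 6.999, 7.06 and 7.93 in SGI-110 cells, against 6.01, 6.15 and 7.31 in solvent cells. The groups overlapped only through solvent array 13, which was above SGI-110 arrays 2 and 9. The difference was 0.84 log2 units (SE 0.362), positive in all 3 numbered pairs at 0.99, 0.91 and 0.62. Its limma adjusted p was 0.167, but 4.81e-06 with the array number as a block and 0.0348 without solvent array 13 alone. It was 0.00118 when arrays numbered 13 were left out of every group, an alternative chosen after seeing the data. Under other alternatives the adjusted p reached up to 0.480, and the difference ran from 0.54 to 1.25 log2 units. The planned check of the block, given further on, was not met by numbers 2 and 9.

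The level of ABCA1 also differed by array number. Array 13 exceeded the mean of arrays 2 and 9 by 0.910 log2 units in combination cells, 0.904 in SGI-110 cells, 0.833 in ASTX660 cells and 1.23 in solvent cells. For SREBF1 the same excess was 0.36 in combination cells, 0.42 in SGI-110 cells, 0.22 in ASTX660 cells and 0.57 in solvent cells. The arrays numbered 13 also stood apart in the second principal component, and the part of what the number marks in the ABCA1 level was not tested.

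Over both backgrounds, meaning averaged over the presence and absence of the other agent, INSIG1 and TMEM97 were lower and NPC1 and ABCA1 higher with SGI-110. Of 17 member probe sets, 9 were called between the 6 arrays with SGI-110 and the 6 without, 7 lower and 2 higher, where 25.8% of all probe sets were called and 12.5% were called lower. The 7 were again INSIG1 and TMEM97: INSIG1 differed by −0.30 (SE 0.0523, limma adjusted p = 0.000891) and TMEM97 by −0.38 (SE 0.0617, adjusted p = 0.000457), and the brightest probe set of both was lower in 6 of 6 numbered pairs. ABCA1 was 1.78-fold higher, by 0.83 log2 units (SE 0.256, adjusted p = 0.0281), and NPC1 by 0.26 (SE 0.0775, adjusted p = 0.0229), each in 6 of 6 pairs. The second ABCA1 probe set differed by 0.91 and was not called (adjusted p = 0.0588), but was without ASTX660 array 13 (0.0125), solvent array 13 (0.0145) or combination array 2 (0.0366), and without all arrays numbered 13 (0.000135). The ABCA1 call was lost without ASTX660 array 2 or 9, solvent array 2 or 9, combination array 13 or SGI-110 array 13 (adjusted p from 0.0641 to 0.0731). The NPC1 call was lost without ASTX660 array 9, solvent array 9, combination array 13 or SGI-110 array 13 (0.059 to 0.0621), and when arrays numbered 13 were left out of every group (0.0989).

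**Figure D2:**
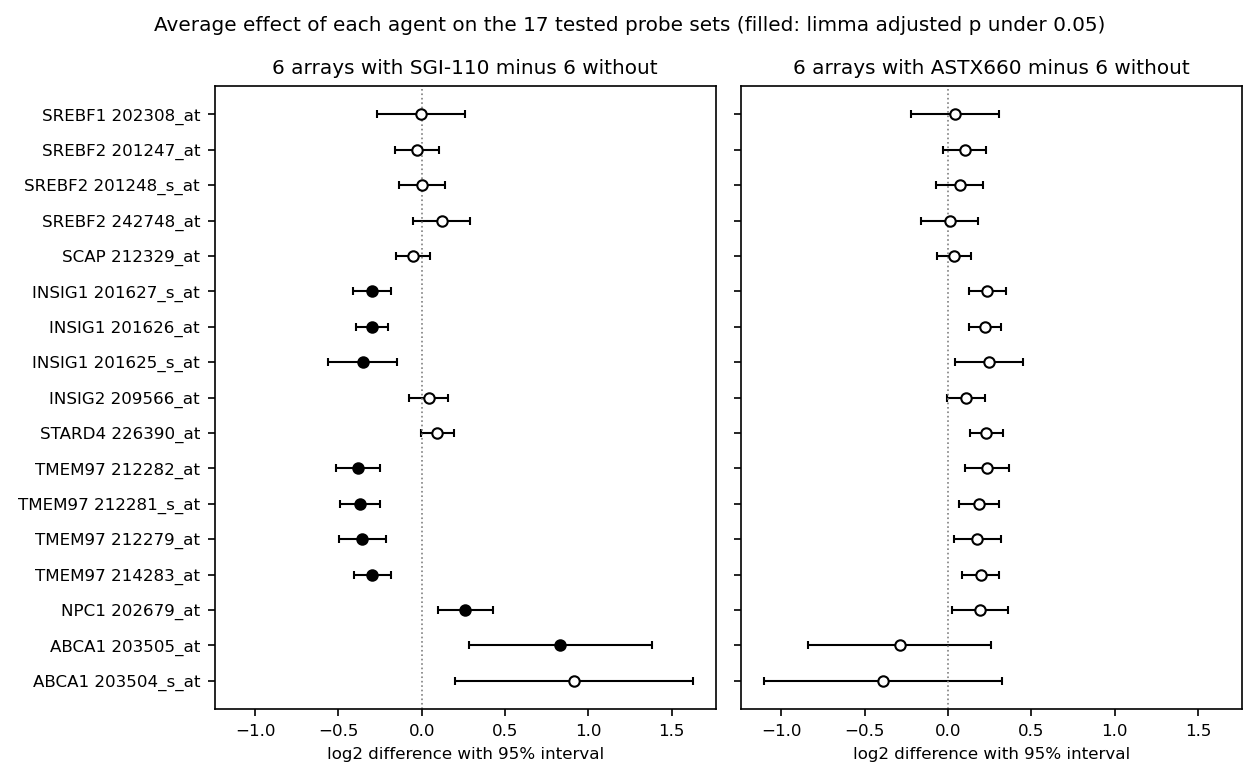
Log2 difference of the 17 tested probe sets (horizontal axis, with 95% intervals) between 6 arrays with an agent and 6 without, for SGI-110 on the left and ASTX660 on the right. Filled points passed the limma adjusted p of 0.05: 9 with SGI-110 (the INSIG1 and TMEM97 probe sets lower, NPC1 and 1 ABCA1 probe set higher) and 0 with ASTX660, where the INSIG1, STARD4, TMEM97 and NPC1 intervals lie above 0 before adjustment.

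In combination cells, STARD4 and NPC1 were the 2 member probe sets of 17 called against solvent, both higher. Over all probe sets tested, 13.9% were called in this comparison and 9.52% were called higher. STARD4 read 9.81, 9.84 and 9.86 in combination cells, against 9.59, 9.42 and 9.54 in solvent cells, without overlap. The difference was 0.32 log2 units (SE 0.0654), or 1.25-fold higher, with a limma adjusted p of 0.00516, and its call held under all alternatives. NPC1 read 8.70, 8.51 and 8.83 in combination cells, against 8.28, 8.07 and 8.33 in solvent cells, without overlap. The difference was 0.45 log2 units (SE 0.110), or 1.37-fold higher (adjusted p = 0.0136), and it was lost without solvent array 9 (0.0711) or combination array 13 (0.0633), each of which left 1 member called.

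INSIG1 and TMEM97 were not called in that comparison. INSIG1 read 10.70, 10.89 and 10.78 in combination cells, overlapping solvent cells, and differed from solvent by −0.06 (95% interval −0.22 to 0.10, limma adjusted p = 0.635). TMEM97 read 10.71, 10.75 and 10.48 in combination cells and differed from solvent by −0.15 (adjusted p = 0.284, and 0.0302 with the array number as a block). ABCA1 read 6.53, 6.93 and 7.64 in combination cells and differed from solvent by 0.54 (adjusted p = 0.353, and 0.000386 with the block), with numbered pairs at 0.52, 0.78 and 0.33. With the block, 6 member probe sets were called, 4 higher and 2 lower, where 23.8% of all were.

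Against ASTX660 cells, the combination gave 5 member calls of 17, 4 lower and 1 higher, where 13.1% of all probe sets were called and 6.48% were called lower. TMEM97 differed by −0.39 (limma adjusted p = 0.0103), and 3 of its 4 probe sets were called lower. Its brightest read 10.71, 10.75 and 10.48 in combination cells against 11.03, 11.13 and 10.93 in ASTX660 cells. Its dimmest lost its call without combination array 13 (0.0513) and with arrays numbered 13 left out of every group (0.0708). The second brightest INSIG1 probe set was also lower, by 0.23 (adjusted p = 0.0283). That call was lost without ASTX660 array 2 (0.0642), 9 (0.0708) or 13 (0.0504), or without combination array 2 (0.116) or 13 (0.1). It was also lost without the intensity trend (0.062) and with arrays numbered 13 left out of every group (0.0975). The brightest INSIG1 probe set differed by −0.23 (adjusted p = 0.0558) and was called lower without ASTX660 array 2 (0.0202), solvent array 13 (0.037) or combination array 9 (0.0376). ABCA1 had the largest member difference between these groups by its brightest probe set, 0.82 (SE 0.362), with numbered pairs at 0.64, 0.95 and 0.87. It was not called (adjusted p = 0.157), but was when arrays numbered 13 were left out of every group (0.00398). NPC1 differed by 0.29, with all 3 pairs higher, and was not called (0.0992). The 1 probe set called higher was the dimmest of SREBF2, by 0.37 (limma adjusted p = 0.0465). It lost its call without any of 11 of the 12 arrays, combination array 9 being the exception (0.0532 to 0.191). With arrays numbered 13 left out of every group it was not called either (0.147). Without combination array 13, 2 member probe sets were called, and 3 without combination array 2, ASTX660 array 9 or ASTX660 array 13.

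ASTX660 gave no member call in the fit without a block. By limma, 0 of 17 member probe sets and 0% of all 23660 were called between ASTX660 and solvent cells, with 7 of 17 and 1754 of 23660 at an unadjusted p under 0.05. Between combination and SGI-110 cells, 0 of 17 and again 0% of all were called, with 9 of 17 and 644 of 23660 at an unadjusted p under 0.05. Over both backgrounds, 0 of 17 and 0% of all were called, with 9 of 17 and 1905 of 23660 unadjusted. Those 9 member probe sets were of INSIG1, TMEM97, STARD4 and NPC1. The median log2 difference of the 17 over both backgrounds was 0.18, with 15 above 0, beside a median of 0.02 over all probe sets tested. TMEM97 gave 4 of the 17, INSIG1 3 and SREBF2 3, so these counts and the median read some genes more than once.

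By the brightest probe set, the numbered pairs all pointed one way for INSIG1, TMEM97 and STARD4. INSIG1 read 10.88, 11.12 and 11.06 in ASTX660 cells, against 10.75, 10.81 and 10.996 in solvent cells, and the groups overlapped. Its pair differences were 0.13, 0.32 and 0.06 between ASTX660 and solvent cells, and 0.28, 0.39 and 0.24 between combination and SGI-110 cells. TMEM97 read 11.03, 11.13 and 10.93 in ASTX660 cells, against 10.72, 10.89 and 10.76 in solvent cells, without overlap. STARD4 read 9.88, 9.71 and 9.65 in ASTX660 cells, against 9.59, 9.42 and 9.54 in solvent cells, without overlap. By the brightest probe set, INSIG1, TMEM97, STARD4 and NPC1 were each higher with ASTX660 in 6 of 6 pairs. ABCA1 was lower in 6 of 6, by 0.13 to 0.55 log2 units. The dimmest TMEM97 probe set was higher in 5 of 6, as were the brightest of SREBF2 and of INSIG2.

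**Figure D3:**
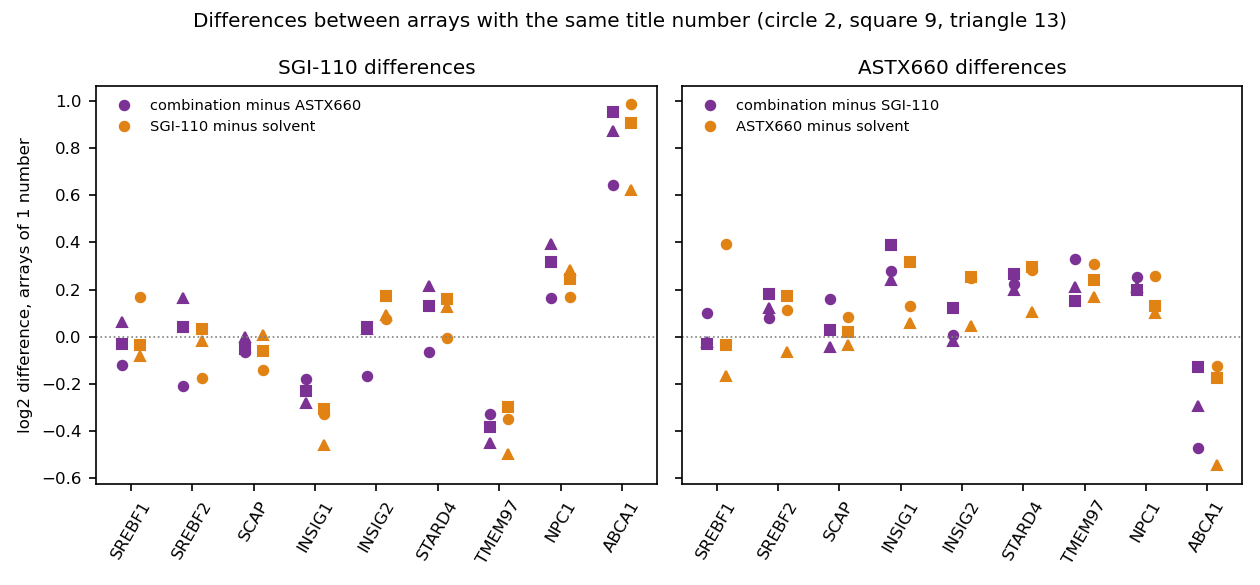
Log2 differences between arrays of the same title number (vertical axis) for the brightest probe set of each gene, for SGI-110 on the left and ASTX660 on the right, each with the other agent (purple) and without it (orange). INSIG1 and TMEM97 lie below 0 in all 6 SGI-110 pairs and above 0 in all 6 ASTX660 pairs, and ABCA1 does the opposite.

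With the array number as a block, INSIG1, TMEM97 and STARD4 passed the threshold for ASTX660. Same-numbered arrays deviated from their group means together, with a correlation over 0.1, in every pair of ASTX660 with solvent and of combination with SGI-110. Across all 4 groups, which the fit uses, 2 of 18 pairs did not, both ASTX660 with combination (0.0728 and 0.0971). The planned check asked for this in every pair of a number, which numbers 2 and 9 did not meet. Pairs of different numbers reached up to 0.22, above combination with SGI-110 for number 2 (0.179). A correlation over 0.1 therefore does not by itself show that the numbers pair the arrays. Over both backgrounds 30 probe sets were called with the block, 0.127% of those tested and all of them higher, and 6 were members. INSIG1 was higher by 0.24 log2 units (adjusted p = 0.418 without the block and 0.00814 with it), TMEM97 by 0.24 (0.53 and 0.00592) and STARD4 by 0.23 (0.29 and 0.0309). All 3 INSIG1 probe sets and 2 of the 4 of TMEM97 were called, and NPC1, at 0.19, was not. Between combination and SGI-110 cells the block gave 8 calls, 0.0338% of those tested, of which 2 were INSIG1, each with an adjusted p of 0.0405. Between ASTX660 and solvent cells it gave 1, LSS of sterol synthesis, higher by 0.45 (adjusted p = 0.0193).

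No member was called for a response to SGI-110 that depended on ASTX660. The interaction, the change with SGI-110 in the presence of ASTX660 minus the change in its absence, gave 0 of 17 member calls and 0% of all in limma, with 1 of 17 and 456 of 23660 at an unadjusted p under 0.05. The estimates do not show equal responses, since their standard errors are larger than those of the single comparisons, with a median of 0.129 beside 0.0915.

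The order of the group means differed between genes. INSIG1 ran from ASTX660 (11.02) through solvent (10.85) and combination (10.79) to SGI-110 (10.49), and TMEM97 ran from ASTX660 (11.03) through solvent (10.79) and combination (10.65) to SGI-110 (10.41). For both, no step between neighbours passed limma's adjusted p without the block. STARD4 ran from combination (9.84) through ASTX660 (9.74) and SGI-110 (9.61) to solvent (9.52), and NPC1 from combination (8.68) through SGI-110 (8.46) and ASTX660 (8.39) to solvent (8.23). ABCA1 ran from SGI-110 (7.33) through combination (7.03) and solvent (6.49) to ASTX660 (6.21). Neighbours in these 3 orders were not told apart by limma without the block where they were tested, and the pairs of SGI-110 with ASTX660 were not tested.

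Other genes of the pathway were read from lists, each gene from its brightest probe set. The list counts are therefore of genes, while the shares beside them are of all tested probe sets, brightest or not. The lists were chosen with earlier results of these data known. Of 20 listed genes of sterol synthesis, the main output of SREBF2, 16 were measured and tested. With SGI-110 over both backgrounds 6 were called lower, 1 higher and 9 not, where 25.8% of all probe sets were called and 12.5% were called lower. The median was −0.11, beside −0.01 over all probe sets. HMGCS1, which makes the mevalonate precursor, fell by 0.50 (limma adjusted p = 0.000752), LSS, which closes the sterol ring, by 0.32 (0.00216), and IDI1, the isopentenyl isomerase, by 0.22 (0.00105). With ASTX660 over both backgrounds 0 were called without the block and 11 were called higher with it, with a median of 0.27 and 15 of 16 above 0. Over all probe sets, 0% were called without the block and 0.127% with it, and the median was 0.02. LSS differed by 0.39 (adjusted p = 0.111 without and 0.000725 with the block), ACAT2, which joins 2 acetyl units, by 0.30 (0.111 and 0.00153), and IDI1 by 0.26 (0.106 and 0.00196). IDI1 also passed without ASTX660 array 13 (0.0245).

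Of 10 listed fatty acid synthesis targets of SREBF1, 9 were tested. With SGI-110, 5 were called lower and 1 higher, beside 12.5% called lower over all probe sets. Among them were SCD, the stearoyl desaturase, which fell by 0.46 (limma adjusted p = 0.000113), ACACA, the acetyl-CoA carboxylase, by 0.37 (0.000989), and ACLY, the citrate lyase, by 0.21 (0.000485). With ASTX660, 0 were called without the block and 2 were higher with it, SCD by 0.26 (0.445 and 0.0162) and the desaturase FADS2 by 0.30 (0.562 and 0.00814). ACSS2, an acetyl-CoA synthetase, differed by 0.16 and was called in neither. Over all probe sets, 0.127% were called for ASTX660 with the block.

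Of 12 listed genes of SREBP processing and turnover, 9 were tested. With SGI-110, 3 were called, beside 25.8% of all probe sets. ERLIN1 fell by 0.26 (limma adjusted p = 0.00138), SPRING1, which is needed for SREBP cleavage, rose by 0.18 (0.00966) and ERLIN2 rose by 0.19 (0.0384), while 6 were not called. ERLIN1 and ERLIN2 form a complex in the endoplasmic reticulum. SPRING1 lost its call without the arrays numbered 13 (0.0832), and ERLIN2 lost its call without any 1 array other than ASTX660 array 2 or solvent array 2 (0.05 to 0.0929). With ASTX660, 0 of 9 were called with or without the block, and the 3 with the smallest p were SPRING1 (0.07), FBXW7 (0.09) and RNF139 (0.05).

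Of 9 listed genes of the LXR axis that governs ABCA1, 6 were tested. With SGI-110, 2 of the 6 were called, both higher, a share near the 25.8% called over all probe sets. They were RXRA, the partner receptor, by 0.32 (limma adjusted p = 0.00682) and LPCAT3, a phospholipid acyltransferase, by 0.24 (0.0189), which lost its call without solvent array 2 (0.054) or combination array 13 (0.0511). PLTP, the phospholipid transfer protein, differed by 0.08 (0.187). With ASTX660, 0 of 6 were called with or without the block, and the values were 0.07 for NR1H3, which encodes an LXR, −0.06 for PLTP and −0.06 for APOE. Of 14 other genes of uptake and transport, 11 were tested. With SGI-110, 2 were called higher and 2 lower, a share near the 25.8% called over all probe sets. Among them were the lysosomal lipase LIPA, which rose by 0.23 (0.00325), and the lipoprotein receptors VLDLR and LRP8, which fell by 0.24 (0.000905) and 0.33 (0.00442). With ASTX660, 0 of 11 were called with or without the block, and the largest of the 3 named values were 0.14 for LRP8 and 0.12 for SOAT1, with LIPA at 0.07.

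**Figure D4:**
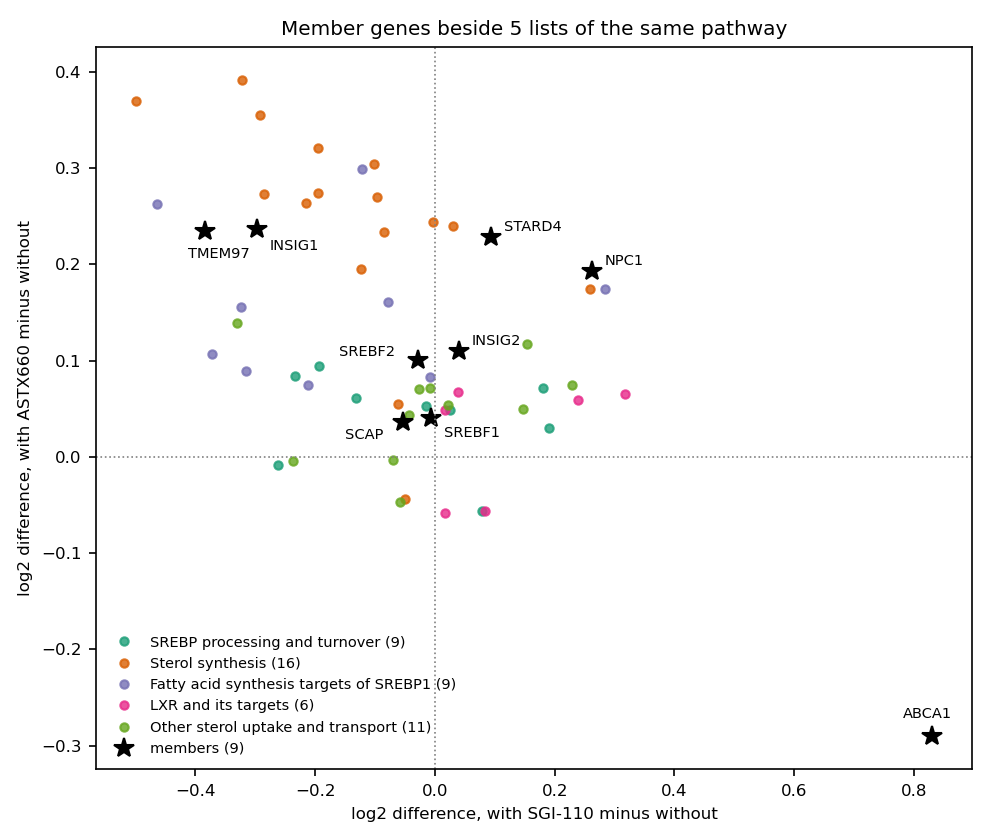
Average log2 difference with SGI-110 (horizontal axis) against that with ASTX660 (vertical axis), each over 6 arrays with and 6 without, for the 9 genes (stars) and the tested genes of the 5 lists (points, number of genes in the legend). The sterol synthesis genes, with a median of −0.11 on the horizontal and 0.27 on the vertical axis, have a median near INSIG1 (0.24) and TMEM97 (0.24) on the ASTX660 axis, but lie mostly to the right of both on the SGI-110 axis (−0.30 and −0.38). ABCA1 is at 0.83 and −0.29. The 2 axes come from the same 12 arrays.

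The probe sets of other genes most like INSIG1 over the 12 arrays were those of SCD (Pearson r = 0.956), TUBA1A (0.945), MMAB (0.944), TTBK2 (0.927) and ATG10 (0.921). Those most like ABCA1 were NADK (0.972), SESN2 (0.972), HOXC6 (0.962), HP1BP3 (0.958) and SLC26A9 (0.956). The points are arrays that share treatments and experiments, so these values describe likeness of pattern only.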

How the data were processed

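Per the submitters' processing notes, the authors' deposited values are log2 intensities from RMA (affy, version not given here) for 54675 probe sets on 12 arrays, made from total RNA with a 3' IVT kit. The platform annotation listed 42898 probe sets. The 1801 with several symbols were set aside and 41091 were used.

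The fit was made in limma 3.58.1 (R 4.3.3) with 4 group means, an intensity trend and Benjamini-Hochberg adjustment within each of 8 comparisons over the 23660 probe sets above the array median in at least 3 arrays. Residual degrees of freedom were 8. The number of arrays limits the precision. The fit without a block was tested on simulated data with independent noise and an SGI-110 effect, and the fit with the block was not.

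The title numbers may mark the experiments, which the labels do not state. Deviations from the group means correlated over 0.1 in 16 of 18 same-numbered pairs. The other 2 were ASTX660 with combination, numbers 2 (0.0728) and 9 (0.0971), so the numbers do not meet that mark across all 4 groups at once. The planned check asked for over 0.1 in every pair of a number, which numbers 2 and 9 did not meet. The 36 pairs of different numbers between groups ran from −0.41 to 0.22. Some passing pairs of numbers 2 and 9 lay within that range, such as solvent with combination (0.139 and 0.127). Pairs of number 13, at 0.49 to 0.56, lay above it. In the Results, blocked values stand beside comparisons whose own pairs all passed, a reading made after the correlations were seen. The closing sections also give blocked values for combination against ASTX660 and for SGI-110 over both backgrounds, which use the 2 pairs that did not pass.

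The members and lists were chosen with earlier results of these data known. Genes named beside the members were, per list, the 3 with the smallest p for each agent, and the 5 most correlated with INSIG1 and ABCA1. Some listed genes and markers were not analysed here. Promoter windows are from RefSeq, GRCh38.p14.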

Additional observations from a re-analysis of the deposited data

Results flagged for a closer look

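The dimmest SREBF2 probe set, with a mean of 6.41 over all 12 arrays, moved in opposite directions with each agent depending on the other. With SGI-110, all 3 numbered pairs were higher in the presence of ASTX660 (0.74, 0.03 and 0.34 log2 units, combination minus ASTX660) and all 3 lower in its absence (−0.02, −0.26 and −0.11, SGI-110 minus solvent). With ASTX660, all 3 were higher in the presence of SGI-110 (0.48, 0.06 and 0.23) and lower in its absence (−0.28, −0.22 and −0.21). The interaction was 0.498 for both (SE 0.160, unadjusted p = 0.00779), but with limma's adjusted p of 1.00 it did not pass the threshold. The reading by SGI-110 and the reading by ASTX660 are the same contrast. The brighter 2 SREBF2 probe sets had interactions of 0.05 and −0.05, which were not called either.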

How the results depend on the processing

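The counts of member calls were recomputed under 19 alternatives. With the array number as a replicate block they were 6 for combination against solvent, 2 for combination against SGI-110, 11 for combination against ASTX660 and 6 for ASTX660 over both backgrounds. The 11 included the brightest probe sets of INSIG1 (adjusted p = 0.00272), NPC1 (0.00232) and ABCA1 (6.4e-06), although the pairs of that comparison did not all correlate over 0.1. For SGI-110 over both backgrounds, which uses the same pairs, the second ABCA1 probe set was called with the block (2.55e-06). With 1 probe set per gene, they were 2 for SGI-110 against solvent, 2 for combination against ASTX660 and 4 for SGI-110 over both backgrounds, since only 9 member probe sets remained. Without the intensity trend, combination against ASTX660 gave 3. Leaving out 1 array at a time gave 4 to 7 for SGI-110 against solvent, 1 to 3 for combination against solvent, 2 to 6 for combination against ASTX660 and 7 to 10 for SGI-110 over both backgrounds, and 0 throughout in the other 4 comparisons. With arrays numbered 13 left out of every group, an alternative chosen after seeing the data, 1315, 1808, 1709 and 3948 of all probe sets were called for SGI-110 against solvent, combination against solvent, combination against ASTX660 and SGI-110 over both backgrounds, beside 2661, 3295, 3098 and 6116 with all arrays. The block gave 4799, 5630, 5495 and 8242. Among the brightest probe sets, no difference called in the main fit or under the alternative changed sign. Differences not called could change sign. For INSIG1, combination minus solvent went from −0.06 to 0.02 with arrays numbered 13 left out. The causes of the moves were not tested.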

Other observations

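With the array number as a block, the 30 probe sets called higher with ASTX660 over both backgrounds came from 22 genes. Besides the 6 member probe sets, 17 belonged to listed sterol synthesis genes and 2 to listed fatty acid genes. Members and lists were chosen with earlier results of these data known, so these counts are descriptive. The remaining 5, named after their values were seen, were TUBA1A (0.24 log2 units), TMEM263 (0.20), SEC24D (0.46), MMAB (0.21) and MAP3K8 (0.40). TUBA1A encodes an alpha-tubulin, MMAB an enzyme of vitamin B12 metabolism, SEC24D a coat protein of vesicles leaving the endoplasmic reticulum, and MAP3K8 a kinase. TUBA1A and MMAB were also among the 5 genes most like INSIG1.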
